A study of Mus musculus with 8 samples.

Results

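The deposited small RNA table of mouse fibroblasts lists 511 small nucleolar RNA (snoRNA) features among 2403 features, and 189 of them are described here as the long snoRNAs. They were chosen by the file's type, by a length above 110 bases, by a place outside one imprinted window of chromosome 12, and by a value of 10 or more in 2 or more of the 8 columns. Of 295 features that met the first 3 conditions, 106 did not reach the level, and the highest single value among these was 16. The level condition used the measured values, so the presence and the abundance of the members are a description. Of the 189, 164 reached 10 in every library and 9 in 2 or 3 libraries. The libraries came from immortalized skin fibroblasts kept for 24 h in hypoxia (1% O2) or normoxia (21% O2). The cells titled KO derive from mir210lox/lox mice and those titled WT from C57BL/6 mice, so the groups were KO hypoxia, WT hypoxia, KO normoxia and WT normoxia, with 2 libraries each, numbered 1 and 2. The labels state no deletion. Nothing in them says that 2 libraries of one group are separate cultures or clones, and the p-values cover the variation among these libraries alone, which may be technical.

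Small nucleolar RNAs guide the chemical modification of other RNAs by base pairing. The H/ACA class, folded into hairpins joined by an H box and ending in an ACA box, directs pseudouridylation with the enzyme dyskerin, and the C/D class directs ribose methylation with fibrillarin. Most vertebrate snoRNAs are cut out of introns of host genes, many of which encode ribosomal proteins, and a related set, the small Cajal body RNAs (Scarna genes), modifies the RNAs of the spliceosome. A few snoRNAs act instead in the cutting of the ribosomal RNA precursor, U3 being the best known.

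miR-210-3p, the microRNA named in the genotype, held 10 and 32 normalized reads in KO hypoxia, 36738 and 39011 in hypoxic WT cells, 23 and 14 in normoxic KO cells, and 4786 and 8676 in normoxic WT cells. KO and WT libraries were thus apart in both conditions. Library totals over the listed features lay between 8618630 and 12167438. The 6 mesenchymal marker microRNAs together held 3270121 to 5181279 in each library, against 798 to 3007 for 4 haematopoietic and 93 to 275 for 5 epithelial markers. The haematopoietic sum ran from 798 to 1492 in KO hypoxia, 1501 to 3007 in WT hypoxia, 997 to 2188 in KO normoxia and 2239 to 2304 in WT normoxia, and the red-cell microRNA miR-451 made up nearly all of it, while the other 3 markers were at 0 to 16. The sum of 2 endothelial markers ran from 102 to 191 over the libraries. Both sums were lower in KO without overlap in hypoxia and in normoxia, and their part in the results was not tested. The 189 members together took 1.05% ± 0.125 of the library total in KO hypoxia, 1.08% ± 0.234 in hypoxic WT cells, 1.17% ± 0.141 in normoxic KO cells and 1.07% ± 0.279 in normoxic WT cells (mean ± SD, n = 2). These ranges overlap, and fewer cells of a type could not be told apart from less RNA per cell in such bulk samples.

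The size class was checked against its motifs. An ACA box (ACA followed by 1 to 5 bases at the 3' end) together with an H box (ANANNA, A, 1 base, A, 2 bases, A) was present in 154 of 189 members, or 81.5%. Among the 174 tested snoRNA features of up to 110 bases the share was 19, or 10.9%, and among 53 other tested features longer than 110 bases it was 5, or 9.43%. The H box letters alone were in 98.9% of members, 78.2% of the shorter snoRNAs and 96.2% of the other long features, so the share rests on the ACA box. A C box (TGATGA in the first 30 bases) with a D box (CTGA in the last 30) was found in 10 members, of which 9 lacked the H and ACA pair, and in 70 of the 174 shorter snoRNAs. By name, 47 members matched a Snora gene, 9 a Scarna gene, 7 a Snord gene of the C/D class and 125 another name, while 1 matched none. The label H/ACA therefore describes most members and not all, and the most abundant, Snord22 and then Snord15b, carry C/D names.

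The sequences of the members that the results turn on are given as the deposited table lists them, 5' to 3'. In the first 3, of the H/ACA class, capitals mark the H box candidate nearest the middle and the ACA box.
Snora61 (FR303868): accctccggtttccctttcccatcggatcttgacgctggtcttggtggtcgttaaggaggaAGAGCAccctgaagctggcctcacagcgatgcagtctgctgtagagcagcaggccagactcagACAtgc
Snora21 (FR092607): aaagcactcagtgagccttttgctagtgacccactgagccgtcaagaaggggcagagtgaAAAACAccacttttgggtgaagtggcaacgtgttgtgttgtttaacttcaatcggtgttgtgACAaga
Snora64 (FR177281): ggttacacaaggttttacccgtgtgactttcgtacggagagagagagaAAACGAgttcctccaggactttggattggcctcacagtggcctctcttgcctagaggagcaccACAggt
The next 3 are the most abundant members with Snord names, and capitals mark TGATGA in the first 30 bases, where present, and the last CTGA.
Snord22 (FR144509): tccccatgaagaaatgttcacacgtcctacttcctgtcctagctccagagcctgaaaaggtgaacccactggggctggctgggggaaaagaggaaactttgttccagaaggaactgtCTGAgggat
Snord15b (FR174851): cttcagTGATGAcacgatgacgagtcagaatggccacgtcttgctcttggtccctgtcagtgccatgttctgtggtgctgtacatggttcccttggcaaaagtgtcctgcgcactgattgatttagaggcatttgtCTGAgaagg
Snord15a (FR337046): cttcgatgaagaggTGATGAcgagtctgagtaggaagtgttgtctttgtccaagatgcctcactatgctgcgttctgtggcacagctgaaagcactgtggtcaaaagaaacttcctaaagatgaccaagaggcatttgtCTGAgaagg
Snord15b and Snord15a both come from the Rps3 gene. Snord22 holds no TGATGA in its first 30 bases, so only its D box met the letters searched.

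The members are placed here by their matched genes in GENCODE release M21 on GRCm38, since 181 of the 189 deposited sequences are contained in a GENCODE small RNA transcript or contain one, and 7 match in part. The coordinates in the file itself follow more than 1 genome build. All 20 members with an ENSMUST identifier stood at GRCm38 coordinates, against 0 of 159 members with an FR identifier that could be placed. Among all features, 389 of 394 ENSMUST features found by identifier stood at GRCm38 coordinates, against 9 of 522 microRNAs. The rule by which reads were assigned to features is not known here. A value listed for an ENSMUST member may therefore belong to other bases than its printed sequence, and the ENSMUST identifier is named wherever such a member is described.

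Genes listed in both coordinate systems show what this means for the values. There were 6 such genes, and 4 of them lie in Eif4a2, which encodes a translation initiation helicase. Gm24616 (GRCm38 chr16:23111617-23111755, plus strand) is listed with the same 139 bases as FR131163 and as ENSMUST00000083274, at starts 73 bases apart. FR131163 held 705 and 226 in hypoxic KO cells, 435 and 207 in hypoxic WT cells, 432 and 130 in normoxic KO cells, and 403 and 377 in normoxic WT cells. ENSMUST00000083274 held 309 and 316 in hypoxic KO cells, 240 and 327 in hypoxic WT cells, 322 and 1053 in normoxic KO cells, and 395 and 403 in normoxic WT cells. With one sequence, the ENSMUST entry ran from 0.438 to 8.10 times the FR entry. Gm26447, 129 bases long, averaged 545 as FR107460 and 61.4 as ENSMUST00000082448, and Gm24201 averaged 84.0 as FR343273 and 73.8 as ENSMUST00000082946. Snora81 averaged 968 as FR346455 and 108 as ENSMUST00000157310. Mir3068 averaged 88.8 as FR298820 and 6.88 as ENSMUST00000083004, and Gm25617 of Gsk3b 48.8 as FR023788 and 118 as ENSMUST00000179548. Values under 2 identifiers of one gene were thus not interchangeable.

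Members of one build also overlap. Counted by gene place, the 189 members form 168 loci, and 21 loci hold 42 of the members. In 15 pairs of FR entries, 2 versions of one snoRNA differ by their ends. In 14 of the 15 the entry longer by coordinates was higher in every library. The exception was Snora21, where FR092607 is longer by coordinates but FR342478 has the longer listed sequence. Neither Snora21 entry was higher in every library. The ratio of the means, longer over shorter by coordinates, ran from 1.05 (Snora21) to 12.6 (Snora62), with a median of 3.28. Snora7a, from the ribosomal protein gene Rpl32, averaged 1441 over its 140-base entry FR154591 and 363 over the 129-base entry FR303334 contained in it. How reads shared by both entries were divided was not tested. Such pairs share their source and count as 1 RNA, so counts of members below are counts of entries.

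Lengths ran from 111 to 325 bases with a median of 132, and 137 members were 120 to 140 bases long. Just inside the length limit lay Snord90 and Snord67 at 111 bases, with means of 586 and 575, and Snora2b at 112 bases. Just outside lay Gm24412 at 109, and Snord89 and Snord8 at 110 bases, with means of 29.9, 696 and 328. Gm22622 (FR053376), Gm22353 (FR069405) and Gm24900 (ENSMUST00000158128) were just inside the level condition with a second-highest value of 10, and Gm23362, Gm25500 and Gm24644 just outside with 9.

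**Figure D1:**
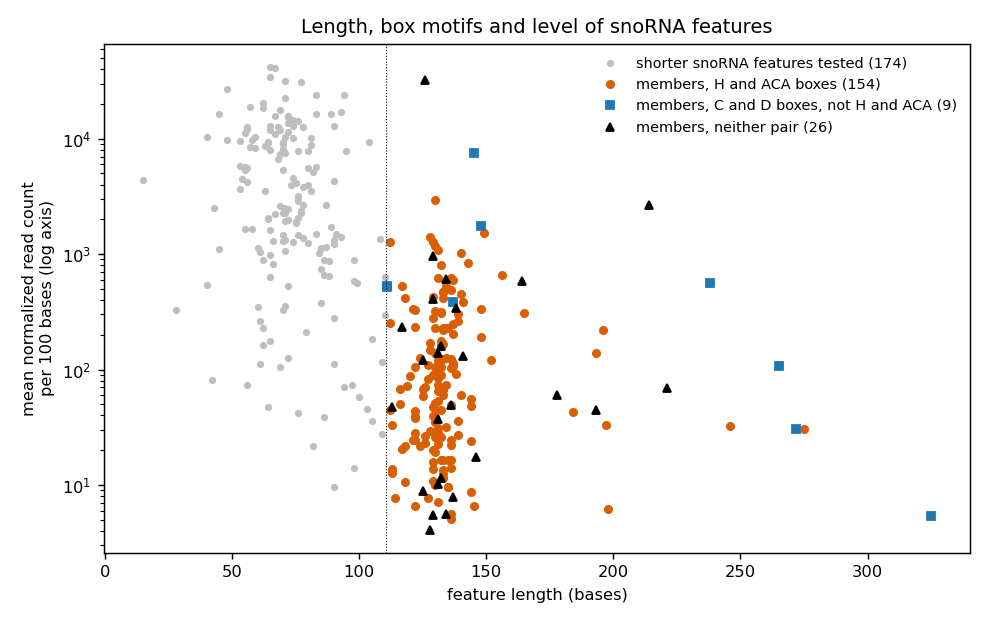
Mean normalized read count per 100 bases (log axis) against feature length for the 189 members, coloured by box motifs, and for the 174 shorter tested snoRNA features (grey). Members with H and ACA boxes crowd between 120 and 140 bases, while Snord22 stands above every other member at 32155 per 100 bases.

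A few members with C/D names held much of the signal. Over the 8 libraries 94 members averaged less than 100, with a median of 104 and a lowest mean of 5.25. The 7 entries with Snord names took 46.3% to 54.9% of the members' sum in a library, and Snord22 alone 32.4% to 39.7%. The 154 members with both boxes took 35.4% to 41.9%. Per 100 bases, Snord22 averaged 32155, Snord15b 7542, Snora61 2952, the ENSMUST entry Gm23927 2674 and Snord15a 1762, followed by Snora62 at 1522 and Snora21 (FR092607) at 1407. In reads per 100 bases, the highest member of the Snora family thus stood more than 10 times below Snord22. Whether reads covered whole entries or parts of them is not known here. Most abundant therefore means most reads, which may not follow the level of the whole RNA.

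Snord22, from the host gene Snhg1 (chr19:8725866-8725991, plus strand), is known from frog oocytes as an RNA needed for maturation of the small-subunit ribosomal RNA. It held 35426 and 41519 in hypoxic KO cells, 49056 and 44016 in hypoxic WT cells, 37602 and 38267 in normoxic KO cells, and 43856 and 34377 in normoxic WT cells. The hypoxia groups did not overlap, with both KO libraries lower, and the normoxia groups did. The fitted log2 difference was −0.28 (SE 0.26) in hypoxia and −0.03 (SE 0.26) in normoxia, neither past the test. The 3 members whose log2 values followed Snord22 most closely over the 8 libraries were Gm23442 (Pearson r = 0.890), Gm23105 (r = 0.852) and Gm23751 (r = 0.797), a description over libraries that all members share.

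Snord15b (chr7:99479563-99479707, minus strand), a guide of ribose methylation from Rps3, held 10328 and 10294 in hypoxic KO cells, 12705 and 11093 in hypoxic WT cells, 11589 and 8641 in normoxic KO cells, and 12650 and 10189 in normoxic WT cells. Both KO hypoxia libraries were below both WT hypoxia libraries, and the normoxia groups overlapped. Snord15a, from another part of Rps3 (chr7:99482785-99482932, minus strand), held 3621 and 1631 in hypoxic KO cells, 2902 and 2482 in hypoxic WT cells, 2561 and 2225 in normoxic KO cells, and 3010 and 2431 in normoxic WT cells. The KO hypoxia libraries of Snord15a were the highest and the lowest of the 8, so the 2 RNAs of one host did not keep 1 ratio there.

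The most abundant H/ACA members came from ribosomal protein and Snhg genes. Snora61, from Snhg12 (chr4:132310240-132310369, plus strand), held 4150 and 3919 in hypoxic KO cells, 4683 and 3005 in hypoxic WT cells, 3166 and 2602 in normoxic KO cells, and 5573 and 3598 in normoxic WT cells. Both KO normoxia libraries were below both WT normoxia libraries, and the hypoxia groups overlapped. Snora62 (FR223156), also called E2, from an intron of Rpsa, held 2140 and 2386 in hypoxic KO cells, 2245 and 2090 in hypoxic WT cells, 2547 and 2161 in normoxic KO cells, and 2747 and 1832 in normoxic WT cells. Its groups overlapped in both oxygen conditions. Snora21 (FR092607), from an intron of Rpl23, held 1759 and 1610 in hypoxic KO cells, 1792 and 1702 in hypoxic WT cells, 2084 and 1981 in normoxic KO cells, and 1903 and 1576 in normoxic WT cells. Its KO libraries were higher than its WT libraries in normoxia and overlapped with them in hypoxia. The other Snora21 entry, FR342478, held 2094 and 1565 in normoxic KO cells and 1781 and 1485 in normoxic WT cells. In hypoxia it held 1749 and 1622 in KO and 1861 and 1581 in WT, so its groups overlapped in both conditions.

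Snora33, from Rps12, held 1739 and 1317 in hypoxic KO cells, 1900 and 1515 in hypoxic WT cells, 2064 and 1059 in normoxic KO cells, and 2097 and 1519 in normoxic WT cells. Snora31 (FR176256), from an intron of Tpt1, which encodes a growth-related protein, held 1896 and 1336 in hypoxic KO cells, 1405 and 1407 in hypoxic WT cells, 1649 and 1539 in normoxic KO cells, and 1309 and 1662 in normoxic WT cells. For both RNAs the KO and WT libraries overlapped in both oxygen conditions.

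**Figure D2:**
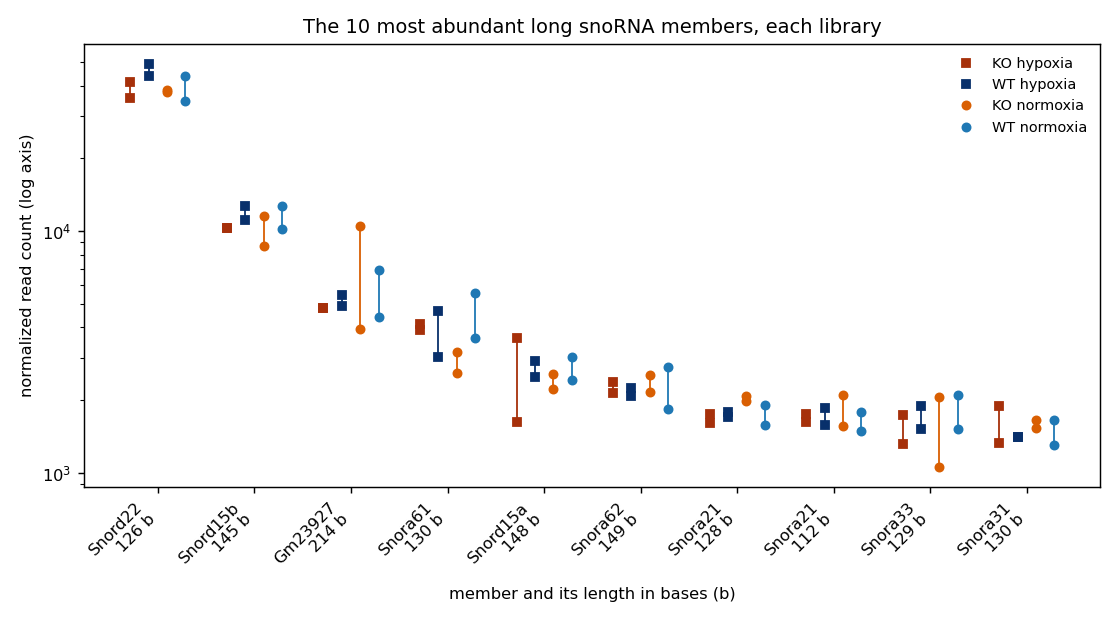
Normalized read counts (log axis) of the 10 most abundant members in each library, 2 points a group joined by a line. Snord22 lies at 34377 or above in every library, and the widest gap within a group is that of Gm23927 in normoxic KO cells, 3935 and 10549.

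A pair of members begin like U3, the C/D RNA that starts the cutting of the ribosomal RNA precursor. Capitals mark the start of 70 bases that they share with each other and with Rnu3b1, a mouse U3 gene.
Gm23927 (ENSMUST00000082466): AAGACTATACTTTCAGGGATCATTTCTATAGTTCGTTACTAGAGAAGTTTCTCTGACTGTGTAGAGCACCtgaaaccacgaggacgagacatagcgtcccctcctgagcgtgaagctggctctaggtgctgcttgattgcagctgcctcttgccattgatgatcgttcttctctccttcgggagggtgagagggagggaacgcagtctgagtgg
FR405946: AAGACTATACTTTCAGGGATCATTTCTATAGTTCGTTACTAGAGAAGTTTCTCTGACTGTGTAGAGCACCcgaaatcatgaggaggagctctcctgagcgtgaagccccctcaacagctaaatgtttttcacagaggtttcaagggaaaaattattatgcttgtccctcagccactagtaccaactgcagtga
The longest unbroken match to Rnu3b1 ended at base 70 of Gm23927 (chr19:4078299-4078512, minus strand). In FR405946, 193 bases long and without a gene name, it ended at base 75. Only unbroken runs were measured, so likeness to U3 past these bases was not tested. A further 2 entries of the file hold the first 30 of these bases and stayed below the level condition, with values of 0 to 6. Gm23927 held 4812 and 4801 in hypoxic KO cells, 5432 and 4899 in hypoxic WT cells, 3935 and 10549 in normoxic KO cells, and 6923 and 4435 in normoxic WT cells. FR405946 held 58 and 45 in hypoxic KO cells, 137 and 97 in hypoxic WT cells, 100 and 61 in normoxic KO cells, and 111 and 79 in normoxic WT cells. Reads from the shared start, and from any later stretch that is alike, cannot be told apart between these entries and U3. Both values are therefore uncertain as levels of the named entry.

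Host genes were found for 147 of the 189 members, over 106 genes. Of these, 130 members lie in protein-coding genes and 17 in other genes, and 92 lie wholly in introns while 55 overlap an exon of at least 1 transcript. Ribosomal protein genes (17 of them) host 25 members, which make up 25.8% of the summed mean, Snhg genes host 12, and Eif4a2 hosts 8 entries over 4 loci. Of the 10 most abundant members 8 lie in a ribosomal protein or Snhg gene. Snhg12 carries Snora61, Snora44 and Snora16a, and their values can be set side by side as products of 1 host. In KO normoxia Snora61 held 3166 and 2602 and Snora16a 727 and 1472, against 5573 and 3598 for Snora61 and 850 and 775 for Snora16a in WT normoxia. Neighbours in one host were thus opposite between the KO normoxia libraries.

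None of the 189 members passed the test in any comparison. The comparisons ask whether the level of an RNA differed between KO and WT cells or between hypoxia and normoxia. KO and WT cells derive from different mice, so the miR-210 genotype cannot be told apart from the source mice or the cell line. limma was fitted on log2(value + 1) over all 1540 features that met the same level condition, with Benjamini-Hochberg adjustment over all of them and a threshold of 0.05. Members called numbered 0 of 189 for KO against WT in normoxia (0.0649% of all features called), 0 for KO against WT in hypoxia (0.13%), 0 for hypoxia against normoxia in KO (0%), 0 in WT (0%) and 0 for the interaction (0%). At an unadjusted p under 0.05, KO against WT in normoxia gave 1 member, where 13.4% of all features were called, 8.64% higher and 4.81% lower. In hypoxia it gave 5 members, 2 higher and 3 lower, where 9.03% of all features were called, 7.14% higher and 1.88% lower. Hypoxia in KO gave 0 members (5.39% of all features, 2.47% higher and 2.92% lower), and in WT 0 (1.3%, of which 1.1% higher and 0.195% lower). The interaction gave 1 member (2.4%, of which 0.909% higher and 1.49% lower). The mean of both genotype contrasts gave 0 members adjusted (0.13%) and 4 unadjusted, 2 higher and 2 lower (17.8%, of which 12.3% higher and 5.45% lower). The mean of both hypoxia contrasts gave 0 (0%) and 0 (3.57%, of which 2.34% higher and 1.23% lower).

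The intervals show which sizes of change these libraries still allow. In KO against WT, the 95% interval of the limma difference lay wholly within a 2-fold change for 77 of 189 members in normoxia. In hypoxia this held for 83. These were 40.7% and 43.9% of members, beside 28.7% and 36.8% of all features tested. For hypoxia against normoxia it held for 84 members in KO and 91 in WT. These were 44.4% and 48.1%, beside 35.6% and 45.3% of all features. With both genotype contrasts averaged it held for 76.7% of members, beside 61.2% of all features. With both hypoxia contrasts averaged it held for 75.1%, beside 71.2%. The median interval reached 0.85 log2 units to either side in a pairwise contrast, and for most members the interval of a pairwise contrast passed 2-fold on at least 1 side.

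The members' median log2 differences were close to 0 in every contrast. For KO minus WT they were −0.03 in normoxia (89 of 189 higher) and −0.08 in hypoxia (66 higher), beside −0.06 and −0.04 over all features tested. For hypoxia minus normoxia they were −0.08 in KO (72 higher) and −0.03 in WT (78 higher), beside 0.02 and 0.02. These signs turn with single libraries. For KO minus WT the member median was 0.09 (107 higher) without WT normoxia number 1 and −0.14 (73 higher) without WT normoxia number 2, and in hypoxia 0.03 (98 higher) without KO hypoxia number 2 and −0.15 (56 higher) without WT hypoxia number 2. For hypoxia minus normoxia it was 0.02 (98 higher) in KO without KO normoxia number 1 and −0.15 without KO hypoxia number 1. In WT it was 0.06 (105 higher) without WT normoxia number 1 and −0.18 (56 higher) without WT normoxia number 2. They also depend on the scaling between genotypes. On the microRNA total the median of all features moved to 0.17 for KO minus WT under normoxia and 0.11 under hypoxia, and that of the members to 0.20 (138 higher and 51 lower) and 0.07 (61 lower). For hypoxia minus normoxia the same scaling gave −0.13 in KO and −0.05 in WT over all features, and −0.21 and −0.09 over the members. Groups without overlap were counted as well. KO against WT in normoxia gave 25 members higher and 21 lower without overlap, where 41.9% of all features did not overlap (21.9% higher and 20% lower), and in hypoxia 15 and 29 (35.8%, of which 19.2% and 16.6%). Hypoxia against normoxia gave 11 and 22 in KO (28.9%, of which 15.8% and 13.1%) and 16 and 33 in WT (25.8%, of which 14.4% and 11.4%).

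**Figure D3:**
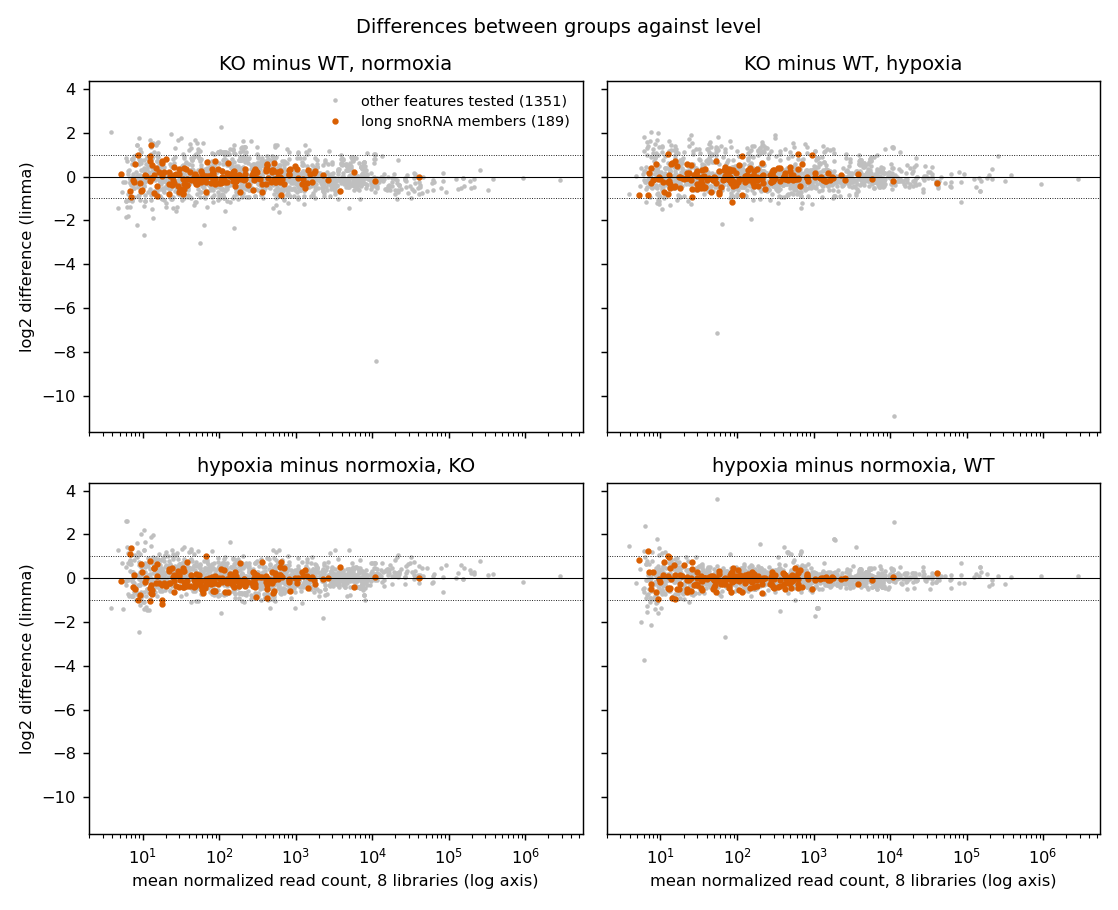
log2 difference (limma) against mean normalized read count (log axis) for the 189 members and the other tested features in the 4 pairwise contrasts. Dotted lines mark 2-fold, and the members lie around 0 at all levels, while the features far below 0 in both KO minus WT panels include miR-210-3p.

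In normoxia the member with the smallest p between genotypes was Gm26225, an H/ACA-type RNA in an intron of the kinesin gene Kif13b. It held 20 and 18 in normoxic KO cells and 4 and 10 in normoxic WT cells, and 10 and 13 in hypoxic KO cells and 20 and 9 in hypoxic WT cells. The normoxia groups did not overlap and the hypoxia groups did. The log2 difference in normoxia was 1.43 (SE 0.59, limma adjusted p = 0.331), and 0.86 without WT normoxia number 1. Next came Gm24147 with 101 and 75 in KO and 59 and 52 in WT (0.64, SE 0.35, adjusted p = 0.463) and Gm22303, from Rock2, with 138 and 219 in KO and 111 and 116 in WT (0.61, SE 0.36, adjusted p = 0.497). The difference of Gm22303 was 0.28 without KO normoxia number 2 and 0.94 without KO normoxia number 1.

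On the lower side in KO normoxia stood 2 RNAs of Snhg12. Snora61, with the values given above, had a log2 difference of −0.64 (SE 0.32, limma adjusted p = 0.415), and −0.33 without WT normoxia number 1. The shorter Snora44 entry FR122279 held 271 and 160 in KO and 351 and 297 in WT (−0.63, SE 0.32, adjusted p = 0.416), or −0.25 without KO normoxia number 2 and −1.01 without KO normoxia number 1. The longer Snora44 entry FR274698, which contains it, held 1111 and 1237 in normoxic KO cells and 1537 and 1036 in normoxic WT cells, so its groups overlapped. Gm22830 held 25 and 19 in KO and 62 and 24 in WT (−0.80, SE 0.49, adjusted p = 0.519), or −0.13 without WT normoxia number 1 and −1.47 without WT normoxia number 2. None of these differences passed the test.

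In hypoxia the KO and WT values of 5 members were apart at an unadjusted p under 0.05. Snora64, a pseudouridylation guide from Rps2, held 1353 and 548 in hypoxic KO cells and 410 and 436 in hypoxic WT cells, and it averaged 609 ± 65.8 in normoxic KO cells and 510 ± 83.4 in normoxic WT cells (SD, n = 2). The log2 difference in hypoxia was 1.02 (SE 0.40, adjusted p = 0.545, limma), and 0.37 without KO hypoxia number 1. Snora81 (FR346455) of Eif4a2 behaved likewise, with 1889 and 700 in hypoxic KO cells and 568 and 606 in hypoxic WT cells, and 1254 and 1039 in normoxic KO cells and 695 and 989 in normoxic WT cells. Its difference in hypoxia was 0.97 (SE 0.43, adjusted p = 0.545), and 0.25 without KO hypoxia number 1. In both the size of the difference rests on that library, and the other KO hypoxia library was still above both WT hypoxia libraries.

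The other 3 were lower in KO hypoxia, and kept this direction with any 1 library left out. FR405946, the unnamed entry with the U3 start and the values given above, had a log2 difference of −1.16 (SE 0.38, limma adjusted p = 0.493), between −1.41 and −0.91 with any 1 library left out. Gm25617, listed as ENSMUST00000179548, held 74 and 78 in hypoxic KO cells and 121 and 155 in hypoxic WT cells (−0.84, SE 0.29, adjusted p = 0.493), between −1.02 and −0.66 with 1 library left out. In normoxia it held 113 and 123 in KO and 139 and 138 in WT. The FR entry of the same gene, FR023788, held 35 and 44 in hypoxic KO cells and 47 and 39 in hypoxic WT cells, with overlap. The shorter Scarna3a entry FR345895 held 21 and 15 in hypoxic KO cells and 32 and 39 in hypoxic WT cells (−0.95, SE 0.41, adjusted p = 0.545), between −1.18 and −0.72 with 1 library left out. The fitted difference of Gm26397, from Tomm20, which follows in the order of p, was 0.56 (SE 0.31, adjusted p = 0.746), with 813 and 899 in hypoxic KO cells and 591 and 566 in hypoxic WT cells.

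Hypoxia in KO cells left no member at an unadjusted p under 0.05. The smallest p belonged to Gm22622, near the level condition, with 10 and 9 in hypoxic KO cells and 3 and 3 in normoxic KO cells (log2 difference 1.39, SE 0.63, limma adjusted p = 0.804). Gm25617 (ENSMUST00000179548) held 74 and 78 in hypoxic KO cells and 113 and 123 in normoxic KO cells (−0.63, SE 0.29, adjusted p = 0.804). Snora75 (FR128600), also called U23, from the nucleolin gene Ncl, held 201 and 230 in hypoxic KO cells and 226 and 662 in normoxic KO cells (−0.84, SE 0.44, adjusted p = 0.804). This difference was −0.07 without KO normoxia number 2, so it rests on that library. Gm22840 held 61 and 112 in hypoxic KO cells and 22 and 73 in normoxic KO cells, and Gm25117 (ENSMUST00000157194) 8 and 10 in hypoxic KO cells and 18 and 21 in normoxic KO cells, with log2 differences of 1.02 (SE 0.56) and −1.04 (SE 0.55). That of Gm22840 was 0.18 without KO normoxia number 1, 1.86 without KO normoxia number 2 and 0.59 without KO hypoxia number 2.

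Hypoxia in WT cells likewise left no member at an unadjusted p under 0.05, and all members had an adjusted p of 1 (limma). By p the first were Gm24523, with 125 and 164 in hypoxic WT cells and 209 and 259 in normoxic WT cells (log2 difference −0.70, SE 0.39), and Scarna3a (FR345895), with 32 and 39 in hypoxic WT cells and 22 and 20 in normoxic WT cells (0.73, SE 0.41). Gm24729 held 13 and 8 in hypoxic WT cells and 33 and 13 in normoxic WT cells (−0.96, SE 0.55), or −0.32 without WT normoxia number 1 and −1.60 without WT normoxia number 2. Snord67, a C/D RNA that guides methylation of the spliceosomal U6 RNA, held 632 and 684 in hypoxic WT cells and 410 and 559 in normoxic WT cells (0.46, SE 0.27), and the difference was 0.23 without WT normoxia number 1. In KO cells Snord67 held 620 and 596 in hypoxia and 564 and 536 in normoxia, so hypoxia lay higher without overlap in both genotypes. Gm26163 held 15 and 19 in hypoxic WT cells and 10 and 6 in normoxic WT cells (1.03, SE 0.59), and the shorter Snora36b entry FR026623 held 8 and 12 in hypoxic WT cells and 18 and 20 in normoxic WT cells (−0.88, SE 0.55).

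Whether the response to hypoxia differed between genotypes was tested by the interaction, that is, the change in KO less that in WT. The smallest p was that of the shorter Scarna3a entry FR345895, at −1.37 (SE 0.58, limma adjusted p = 1.00). Gm26397 followed at 0.91 (SE 0.44, adjusted p = 1.00) and Gm24729 at 1.59 (SE 0.78, adjusted p = 1.00). Gm26397 was at 0.53 without KO normoxia number 2, and Gm24729 at 0.95 without WT normoxia number 1. The longer Scarna3a entry FR273736 held 62 and 85 in hypoxic KO cells, 86 and 95 in hypoxic WT cells, 74 and 96 in normoxic KO cells, and 94 and 83 in normoxic WT cells, so KO and WT overlapped in normoxia and not in hypoxia.

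Among 127 members with a mean of at least 50, libraries were compared one by one for values at least 1.5 times the highest of the other 7. KO normoxia number 2 met this for 9 members and KO hypoxia number 1 for 5, and each of the other 6 libraries for 0. Over all 1164 tested features with such a mean the same 2 libraries had the most such values, 4.90% in KO normoxia number 2, beside 7.09% of members, and 1.55% in KO hypoxia number 1, beside 3.94%, while the other libraries had 0 to 1.12%. KO normoxia number 2 held 1104 for Gm22767, an H/ACA-type RNA of Ppp1r8, against 364 to 563 in the other libraries, and 662 for Snora75 (FR128600) against 201 to 321. It held 2548 for Snora7a (FR154591), from Rpl32, against 1066 to 1542, and 1472 for Snora16a against 615 to 872. The other members of this set were Gm23927, Gm26440, Gm24616 (ENSMUST00000083274), Snora65 from Rpl12 and Gm22303, at 1.89 to 3.27 times the median of the other libraries.

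The excess was in one entry of an overlapping pair and not in the other. The shorter Snora7a entry FR303334 held 345 in KO normoxia number 2 and 279 to 427 in the others, and the shorter Snora75 entry FR136427 held 88 and 45 to 101. The longer entry stood 7.39 times above the shorter one for Snora7a in that library and 7.52 times for Snora75. KO hypoxia number 1 held 1889 for Snora81 (FR346455), 1353 for Snora64, 905 for Snora34, 705 for Gm24616 (FR131163) and 226 for Gm23202, at 1.87 to 2.70 times the median of the others. Values below every other library by the same factor were found for 3 of the 127 members in KO normoxia number 2, for 3 in WT hypoxia number 2, for 2 in KO hypoxia number 1 and for 1 in KO normoxia number 1. Over all 1164 features the same held for 41 (3.52%), 3 (0.258%), 22 (1.89%) and 11 (0.945%) in these libraries. Members more than 2-fold apart within a pair of replicates numbered 23 in hypoxic KO cells, 13 in hypoxic WT cells, 24 in normoxic KO cells and 7 in normoxic WT cells. In hypoxia these were 12.2% of members in KO and 6.88% in WT, beside 13.4% of all features in KO and 13.2% in WT. In normoxia they were 12.7% of members in KO and 3.70% in WT, beside 15.8% of all features in KO and 8.70% in WT.

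**Figure D4:**
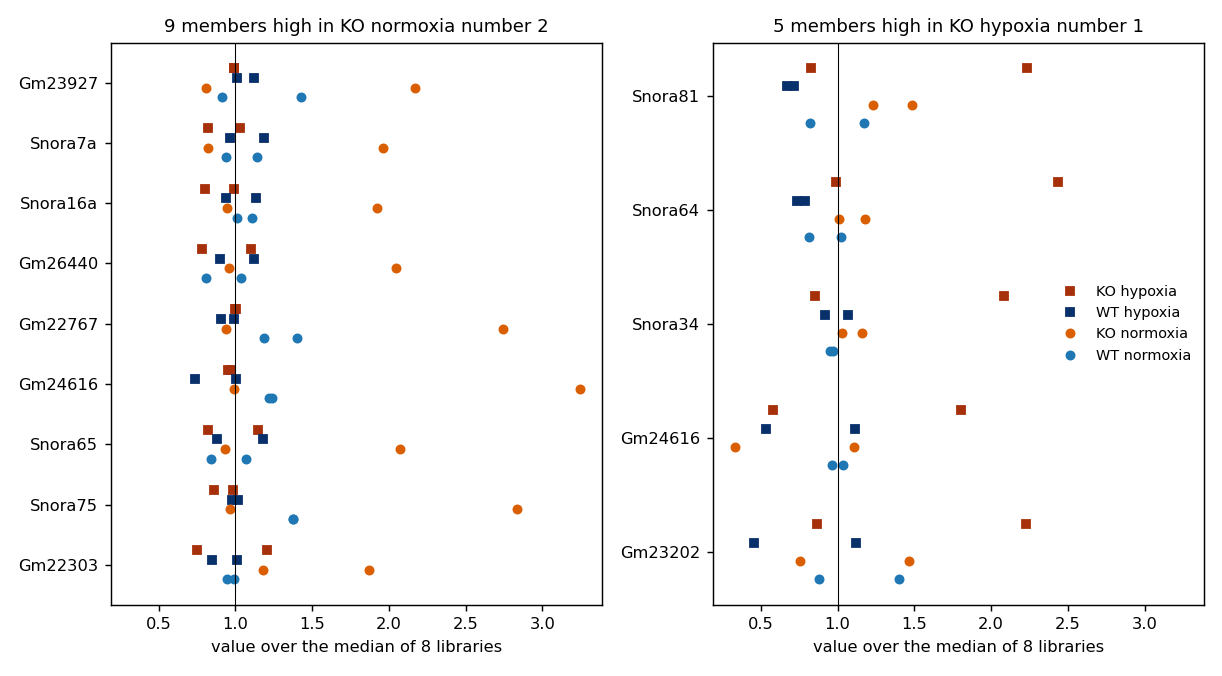
Value of each library over the median of all 8 for the 9 members high in KO normoxia number 2 (left) and the 5 high in KO hypoxia number 1 (right). In each row a single KO library lies to the right of the other 7.

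Some members contain microRNAs. The file lists 11 microRNA arms at places wholly inside 9 members, and 1 more, miR-1940, overlaps Snora47 in part. Snora36b holds miR-664, and Scarna3b and Scarna3a hold miR-1843a and miR-1843b. In the members' sequences capitals mark the mature microRNAs of RefSeq (GRCm38.p6), and in the microRNAs they mark the seed, bases 2 to 8, which sets most of the targets of a microRNA.
Snora36b (FR252933): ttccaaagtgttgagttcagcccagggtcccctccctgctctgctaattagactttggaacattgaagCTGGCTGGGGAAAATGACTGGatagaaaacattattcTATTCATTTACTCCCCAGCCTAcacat
Scarna3b (FR309447): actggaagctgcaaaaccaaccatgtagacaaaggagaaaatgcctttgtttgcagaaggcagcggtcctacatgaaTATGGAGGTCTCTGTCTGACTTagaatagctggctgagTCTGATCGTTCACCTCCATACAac
Scarna3a (FR273736): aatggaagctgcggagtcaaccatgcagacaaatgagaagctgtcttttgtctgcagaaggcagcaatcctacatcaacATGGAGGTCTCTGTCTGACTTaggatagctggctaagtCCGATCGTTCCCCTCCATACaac
miR-664-3p: uAUUCAUUuacuccccagccua
miR-664-5p: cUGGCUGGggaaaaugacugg
miR-1843a-5p: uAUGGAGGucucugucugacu
miR-1843b-5p: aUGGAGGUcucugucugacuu
In Snora36b (chr1:185242907-185243038, plus strand, in an intron of Rab3gap2) the arms lie at bases 69 to 89 and 106 to 127 of 132, so the second ends 5 bases before the 3' end. miR-1843a-5p begins at base 78 of Scarna3b. The mature sequence of miR-1843b-5p, at bases 80 to 100 of Scarna3a, is also contained in Scarna3b from base 79, 1 base further on than miR-1843a-5p, so reads of these 2 arms can be told apart only by their ends. Their seeds differ because of this shift.

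For 4 of the 11 arms, both of miR-664 and the 5p arms of miR-1843a and miR-1843b, the mean exceeded that of the longest entry that contains the arm. miR-664-5p is counted by its place and its RefSeq sequence, since the sequence the file lists for it was not found in Snora36b. miR-664-3p held 381 and 868 in hypoxic KO cells, 579 and 1212 in hypoxic WT cells, 460 and 456 in normoxic KO cells, and 492 and 962 in normoxic WT cells. Snora36b (FR252933) itself held 33 and 40 in hypoxic KO cells, 27 and 32 in hypoxic WT cells, 27 and 30 in normoxic KO cells, and 40 and 46 in normoxic WT cells. The arm of 22 bases averaged 676 and the entry of 132 bases 34.4, a ratio of 19.7. KO and WT libraries of miR-664-3p overlapped in hypoxia, and in normoxia both KO libraries were lower. miR-1843a-5p, listed as miR-1843-5p, averaged 194 and Scarna3b (FR309447) 49.9. miR-1843b-5p averaged 130 and Scarna3a (FR273736) 84.4.

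miR-664-3p had log2 differences of −0.54 (SE 0.49) for KO minus WT in hypoxia and −0.59 (SE 0.49) in normoxia, and of 0.33 (SE 0.49) and 0.28 (SE 0.49) for hypoxia minus normoxia in KO and in WT. None of these 11 arms or miR-1940 passed the test in any contrast, and the smallest adjusted p was 0.286 (limma, mean of both genotype contrasts). At an unadjusted p under 0.05 the count was also 0 in every contrast. Of the other arms, miR-3084-3p averaged 112 beside 140 for its entry FR211246, miR-3068-5p 36.3 beside 88.8 for Mir3068 (FR298820), and miR-3069-3p 31.1 beside 84.1 for Scarna13.

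**Figure D5:**
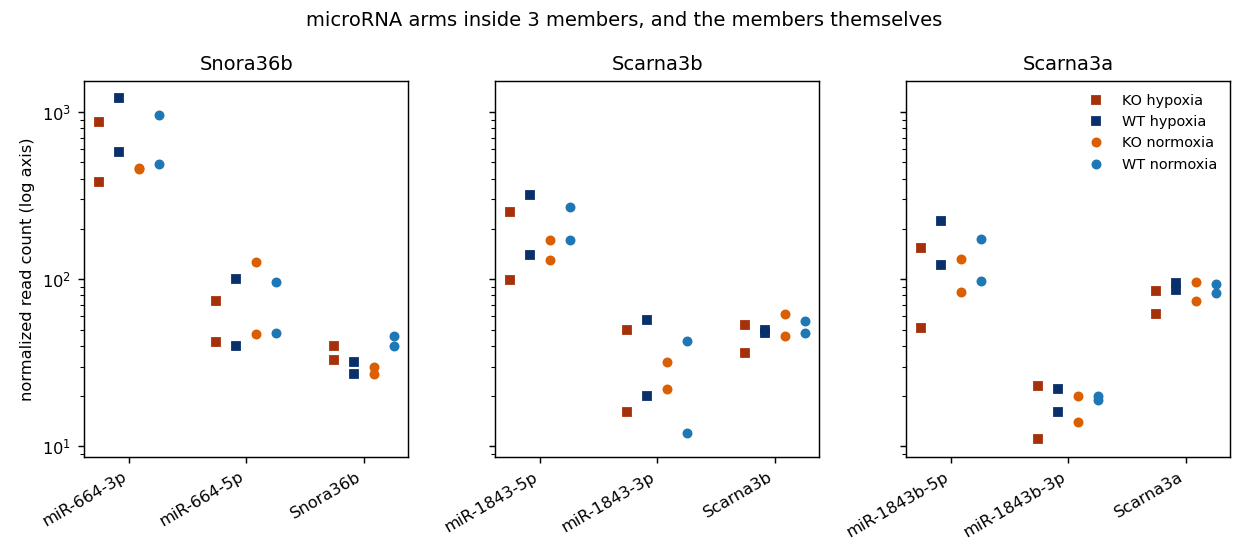
Normalized read counts (log axis) of 2 microRNA arms each and of the longer entry that contains them, for Snora36b, Scarna3b and Scarna3a, by library. miR-664-3p lies at 381 to 1212 in every library, above Snora36b at 27 to 46.

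A piRNA-annotated entry, FR198735, covers the start of Snord15a. It held 1079 and 297 in hypoxic KO cells, 879 and 743 in hypoxic WT cells, 536 and 758 in normoxic KO cells, and 967 and 857 in normoxic WT cells. Like Snord15a, it had its highest and its lowest value in the 2 KO hypoxia libraries. It averaged 765 over its 31 bases, beside 2608 for Snord15a, and reads from these bases cannot be told apart between both entries.

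The 9 entries with names of small Cajal body RNAs (Scarna) come from 6 genes. Members with other names were not searched for this class. Scarna6, from the autophagy gene Atg16l1, held 261 and 377 in hypoxic KO cells, 279 and 296 in hypoxic WT cells, 286 and 248 in normoxic KO cells, and 294 and 232 in normoxic WT cells. It was the highest of the 9, at 107 per 100 bases, and its groups overlapped in both conditions. Scarna13, from Snhg10, held 67 and 88 in hypoxic KO cells, 93 and 93 in hypoxic WT cells, 89 and 66 in normoxic KO cells, and 98 and 79 in normoxic WT cells. Scarna8 (FR176177) averaged 29.9 and Scarna10 (ENSMUST00000158992), the longest member at 325 bases, 17.6. Together the 9 held 526 and 718 in hypoxic KO cells, 609 and 644 in hypoxic WT cells, 591 and 647 in normoxic KO cells, and 620 and 569 in normoxic WT cells, and these sums overlapped between the genotypes in both conditions.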

How the data were processed

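Small RNA was measured in 8 libraries. Per the labels' protocols, the RNA came from miRNeasy columns, and NEBNext reagents for SOLiD made the small RNA libraries. The deposited values are a score, the authors' normalized read count per feature, in whole numbers. How reads were aligned, assigned and normalized is not known here, and reads that match several features may be split or repeated.

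limma 3.58.1 (R 4.3.3, intensity trend) was fitted to log2(value + 1) of the 1540 features with at least 10 in at least 2 libraries, with 4 group means, 4 residual and 5.64 prior degrees of freedom, and was tested on simulated data. Adjustment ran over all features. Gene names and hosts come from sequence matches to GENCODE M21, microRNAs from RefSeq (GRCm38.p6).

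The members and lists were chosen with earlier results of these data known. Members named in the text are the 10 most abundant, per pairwise contrast the 3 higher and 3 lower with the smallest p, the 3 with the smallest interaction p, the Scarna entries, those at the limits and the 3 most like Snord22. The overlapping entries, the entries with libraries apart and those with microRNAs were chosen after their values were seen.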

Additional observations from a re-analysis of the deposited data

Results flagged for a closer look

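Among the 10 most abundant members and those named for their p, values of 3 moved in opposite directions without overlap. They are put forward for a closer look, although no difference passed the test. These are also the 3 with the smallest interaction p. The other members were not searched, and Snora36b (FR252933), with the values given above, met the same rule. The shorter Scarna3a entry FR345895 was lower in hypoxia than in normoxia in KO cells and higher in WT cells, and KO was lower than WT in hypoxia and higher in normoxia, with an interaction of −1.37 (SE 0.58, limma adjusted p = 1.00). Gm26397 (FR171588) was higher in hypoxia in KO cells and lower in WT cells, with an interaction of 0.91 (SE 0.44, adjusted p = 1.00), or 0.53 without KO normoxia number 2. For Gm24729 (FR239135) KO was higher than WT in hypoxia and lower in normoxia, at 1.59 (SE 0.78, adjusted p = 1.00), or 0.95 without WT normoxia number 1.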

How the results depend on the processing

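The count of 0 members called was also 0 under all 151 alternatives run, over 7 contrasts. These were 2 other pseudocounts (8 and 0.5), leaving the level condition out or replacing it by a mean of 50, trimmed mean of M values factors, quantile normalization, scaling to the microRNA or snoRNA total, no intensity trend, the replicate block, the groups of a contrast alone, 2 narrower member definitions and leaving out each library. The 2 narrower member definitions took only a part of the members from the main fit, so their count of 0 was fixed in advance. A fit that dropped the second KO normoxia and the first KO hypoxia library was chosen after seeing the data. Among the log2 differences of named members under the alternatives, 525 kept their direction and side of the threshold and 1 did not. This was Snora75 (FR128600) for hypoxia in KO, which ran from −1.62 without KO normoxia number 1 to 0.025 without those 2 libraries, where the cause was not tested. The unadjusted counts were less steady, reaching 16 for KO against WT in normoxia and 14 for hypoxia in KO without KO normoxia number 1, and 9 for KO against WT in hypoxia without KO hypoxia number 2. Numbers 1 and 2 deviated together between groups (r from 0.151 to 0.551 over 1540 features, 0.139 to 0.367 over the members), but the labels do not say what a number shares. With the replicate block 0 members were called, and members at an unadjusted p under 0.05 numbered 5 and 6 for KO against WT in normoxia and in hypoxia, 6 and 0 for hypoxia in KO and in WT, and 7 for the interaction. With 2 libraries a group, the pairwise interval of most members passed 2-fold on at least 1 side. The intervals thus limit what can be said of changes under 2-fold and, for those members, of larger ones too. For entries below about 50 counting error adds to this.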
